A study of Mus musculus with 48 samples.

Results

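The Rap GTPases and the proteins that switch them were followed in RNA from mouse cerebral cortex. The 9 genes were chosen by name, as Rap1a, Rap1b, Rap2a and Rap2b, their exchange factors Rapgef1, Rapgef2 and Rapgef4, and their GTPase-activating proteins Rap1gap and Sipa1l1. They were chosen with earlier results of these data known, so counts among them are not those of a blind choice. All 9 were found among the 16953 genes that both expression tables list. The 48 mice formed 12 groups of 4, by sex, by genotype and by inhaled air. B6 groups were C57BL/6J mice labelled 4 months old and exposed for 8 weeks, and APOE3 and APOE4 groups were targeted replacement mice (APOE-TR), labelled 6 months old and exposed for 15 weeks, in which a human APOE allele takes the place of mouse Apoe. Within each genotype and sex, 4 mice breathed filtered air (control) and 4 breathed nPM, a nano-sized fraction of traffic particles put back into the air, 5 hr at a time and 3 days a week. The B6 exposure and the APOE-TR exposure were run apart and tabulated apart, so strain, age, weeks of exposure and table cannot be told apart, and levels were not compared between them.

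Rap proteins are small GTPases that are active when they carry GTP and inactive when they carry GDP. Exchange factors load GTP, and GTPase-activating proteins (GAPs) speed its hydrolysis. In neurons Rap signaling acts on cell adhesion, on the response to cyclic AMP and on the shape and strength of dendritic spines. RNA levels report the supply of these proteins and not the share of Rap that carries GTP.

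Rap1a and Rap1b are near copies, as are Rap2a and Rap2b, and the start of each coding sequence is shown because reads of close copies can be confused. The stretches are coding bases 1 to 120 from GENCODE transcripts (mm10, also called GRCm38), printed 5′ to 3′, and capitals mark the bases that differ within a pair.
Rap1a: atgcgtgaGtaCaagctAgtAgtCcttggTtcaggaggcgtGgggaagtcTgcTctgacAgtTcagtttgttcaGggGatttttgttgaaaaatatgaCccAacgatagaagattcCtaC
Rap1b: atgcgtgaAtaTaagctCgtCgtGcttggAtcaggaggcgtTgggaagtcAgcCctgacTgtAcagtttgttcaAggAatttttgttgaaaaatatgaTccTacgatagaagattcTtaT
Rap2a: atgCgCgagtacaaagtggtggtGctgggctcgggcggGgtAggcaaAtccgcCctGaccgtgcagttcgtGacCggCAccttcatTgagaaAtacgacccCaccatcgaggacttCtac
Rap2b: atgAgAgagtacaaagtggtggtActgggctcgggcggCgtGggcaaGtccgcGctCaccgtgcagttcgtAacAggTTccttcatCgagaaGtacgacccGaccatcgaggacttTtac
The Rap1a stretch lies in coding exons on the minus strand at chr3:105750245-105750301 and chr3:105745910-105745972. The Rap1b stretch lies on the minus strand at chr10:117824594-117824650 and chr10:117822807-117822869. On the plus strand, the Rap2a stretch lies at chr14:120478727-120478846 and the Rap2b stretch at chr3:61365057-61365176, each within a single exon. Rap1a and Rap1b differed at 101 of 552 coding bases (81.7% identity), and the longest run they shared was 20 bases. Of 503 windows of 50 coding bases, 4 held no more than 3 differences, the number of mismatches allowed in mapping. Rap2a and Rap2b differed at 94 of 549 coding bases, shared a run of 44 bases, and stayed within 3 differences in 94 of 500 windows. The processed pseudogene Rap1a-ps2 (chr2:117240883-117241441) came within 3 differences of 187 of the 503 Rap1a windows, so the count of Rap1a is uncertain over those bases, as are those of the Rap2 pair over the shared windows. Only coding bases were compared, whereas the exons span 2407 bases for Rap1a, 4191 for Rap2a and 6793 for Rap2b. Only pseudogenes named after these GTPase genes were looked for.

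The depth behind each gene was ample in APOE-TR mice and thin for Rap1a in B6 mice. The listed genes held 17.8 to 31.3 M reads per APOE-TR mouse and an estimated 2.05 to 24.4 M reads per B6 mouse. In APOE-TR mice the lowest count of any of the 9 genes was 519 reads, for Rapgef1. In B6 mice Rap1a fell as low as an estimated 23 reads, whereas no other gene of the 9 fell below 86. Per kilobase of exon, Rapgef4 had the highest level in APOE-TR mice, at 76.9 ± 20.8 CPM per kb (SD, n = 32 mice), and Sipa1l1 followed with 38.7 ± 10.2 CPM per kb. Rap2a (25.4 ± 1.55 CPM per kb) and Rap1gap (23.6 ± 4.67 CPM per kb) came next and were closer to each other than their spread. Rap1b (15.7 ± 4.54 CPM per kb), Rapgef1 (12.8 ± 2.51 CPM per kb), Rapgef2 (12.3 ± 2.51 CPM per kb) and Rap1a (9.80 ± 4.37 CPM per kb) also ran into each other. Rap2b was lowest, at 7.78 ± 0.980 CPM per kb, within the spread of Rap1a.

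A few APOE3 female libraries stood apart from the other APOE-TR libraries. In control mouse 61, control mouse F6 and nPM mouse 55, mitochondrial genes held 21.8%, 18.3% and 14.9% of summed CPM, against 7.03% to 13.7% in the other 29 APOE-TR mice. Relative levels also fell with transcript length in these libraries, with slopes of −0.53, −0.38 and −0.21 log2 per doubling of length against −0.14 to 0.15 in the others. Xist, an RNA of the inactive X chromosome, was 90.3 and 211 CPM in controls 61 and F6, 526 CPM in nPM mouse 55 and 589 to 910 CPM in the other 13 APOE-TR females. The labelled sex held in every mouse by Xist and by the Y-linked Ddx3y. Mouse Apoe, at most 30.7 CPM in APOE-TR mice and at least 164 CPM in B6 mice, separated these 2 kinds of mice but overlapped between APOE3 and APOE4, so the label of the human allele was not checked here. Neuronal RNA was present in every library, and none of the 7 neuron markers lacked reads in all mice of a group. The sums of these markers were 4552 to 7055 CPM in APOE-TR mice and 2185 to 6464 CPM in B6 mice. The sum of 7 markers of striatal neurons, which are few in cortex, ranged from 291 to 1555 CPM in APOE-TR mice and from 97.03 to 1885 CPM in B6 mice, with overlap between all groups of a table, and its part in the results was not tested. In bulk RNA, fewer cells of a type and less RNA per cell cannot be told apart.

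**Figure D1:**
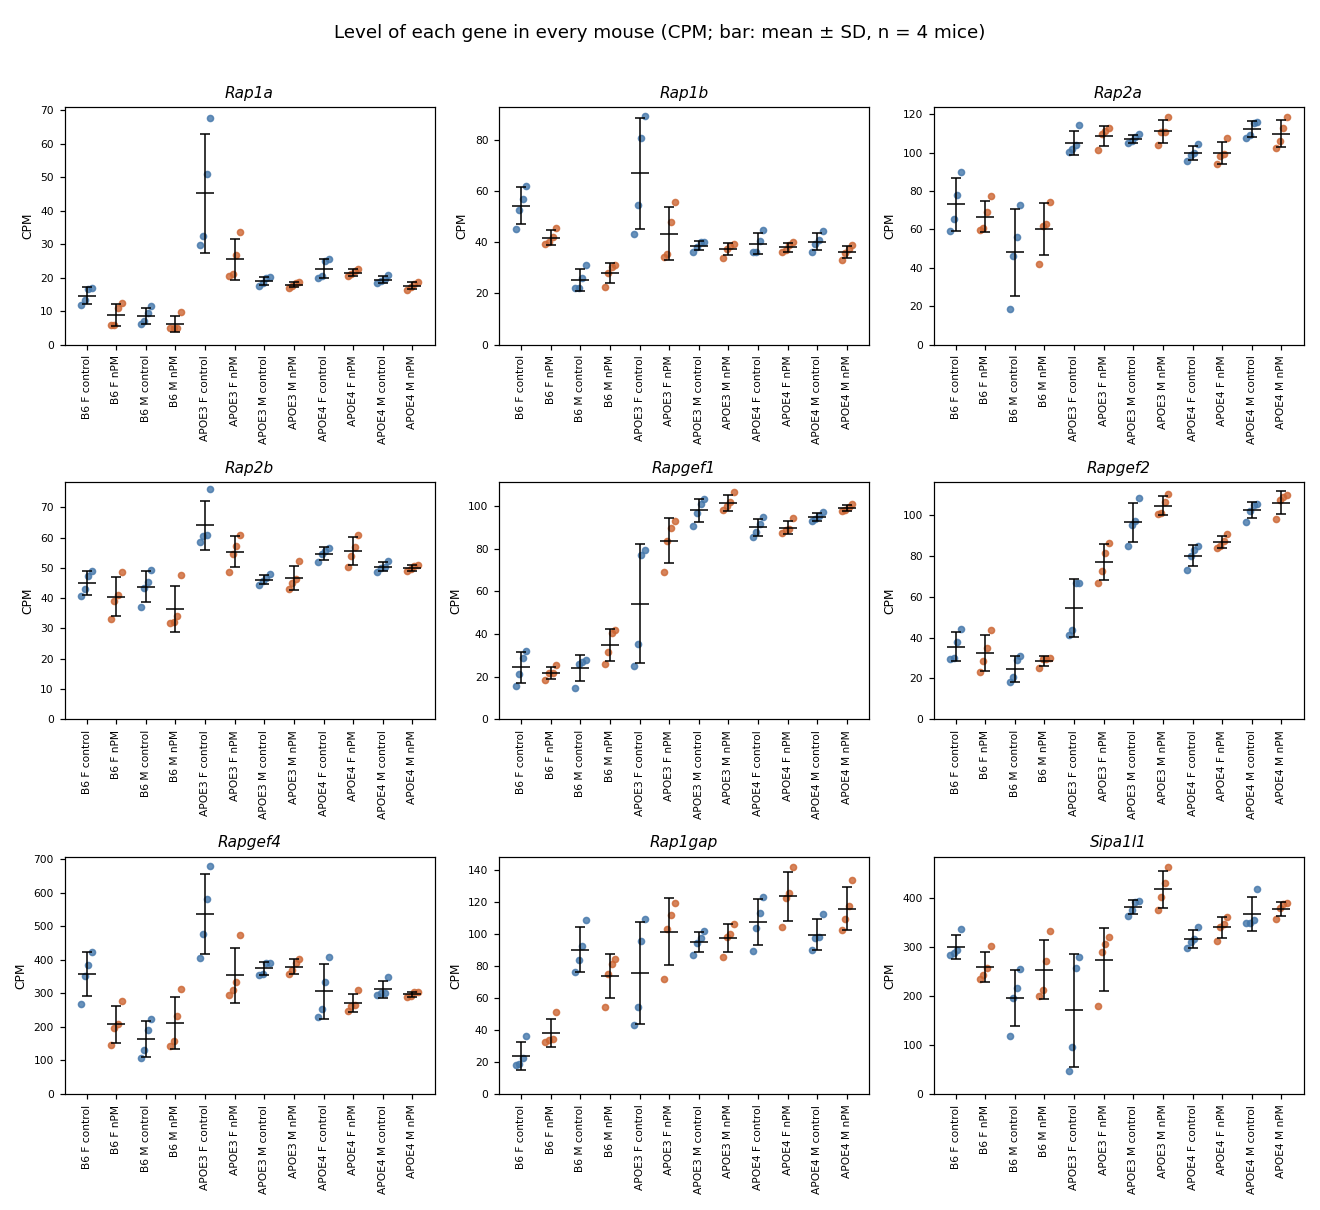
Level of each of the 9 genes in every mouse, in CPM (vertical axis, from 0), by group (horizontal axis, F female, M male). Points are mice (blue control, orange nPM) and bars are the mean ± SD of 4 mice. APOE3 control females held the highest Rap1a (67.8 CPM) and the lowest Sipa1l1 (47.1 CPM) of all 32 APOE-TR mice.

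To ask whether nPM changed these genes, log2 values scaled by TMM were fitted with exposure, genotype and sex as terms of a limma model over 48 mice, and a gene was called at an unadjusted p under 0.005, the threshold of the study. Of the 9 genes, 1 was called, Rap1a, which was lower with nPM. The study had named Rap1a among its top genes for nPM in these same mice, also as lower. This call repeats that result in the same data and is not independent of it. Of the 11068 genes tested, 1.49% were called and 0.669% were called lower. For Rap1a the log2 difference was −0.38 (standard error 0.101, p = 0.00044, n = 48 mice), and its adjusted p of 0.301 missed 5% FDR. At an unadjusted p under 0.05 there were 4 of 9 genes, against 14.5% of all genes. The median log2 difference of the 9 genes was 0.06, and that of all genes tested was −0.01.

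Rap1a, a regulator of integrin adhesion, was measured in B6 control females at 11.8, 13.3, 16.5 and 16.9 CPM and in B6 nPM females at 5.85, 5.93, 10.95 and 12.4 CPM. B6 control males had 6.08, 7.10, 9.40 and 11.5 CPM and B6 nPM males 5.01, 5.03, 5.07 and 9.65 CPM. Values of the exposed mice were mostly the lower ones, but the groups overlapped in each sex. Summed oligodendrocyte markers were 1351 to 3048 CPM in B6 control females and 1172 to 3133 CPM after nPM. They were 1978 to 4431 CPM in B6 control males and 1827 to 2987 CPM after nPM. Rap1a was highest in the mouse with the highest sum in each B6 group except nPM males, where mouse 11 had 2637 CPM. The part of oligodendrocytes in the B6 Rap1a values was not tested. In APOE3 females the controls had 29.8, 32.5, 50.8 and 67.8 CPM and the nPM mice 20.53, 21.1, 26.9 and 33.6 CPM. The groups met at nPM mouse 55 and controls 52 and 63, and the highest values of each group belonged to the libraries with the highest mitochondrial share. In the other APOE-TR groups the means lay close together. APOE4 females had 22.7 ± 2.97 CPM in controls and 21.5 ± 0.960 CPM after nPM (SD, n = 4), APOE3 males 19.0 ± 1.25 and 17.9 ± 0.807 CPM, and APOE4 males 19.4 ± 1.02 and 17.6 ± 1.02 CPM. The log2 differences were −0.72 in B6 females, −0.46 in B6 males, −0.70 in APOE3 females, −0.07 in APOE3 males, −0.06 in APOE4 females and −0.13 in APOE4 males. None of these 6 passed the threshold on its own, and their adjusted p was at least 0.23.

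The Rap1a difference was called in each of the 48 fits that left 1 mouse out, with values from −0.41 to −0.34. Without the 3 libraries that stood apart it was −0.32 and still called (p = 0.000815, n = 45 mice), and with the length slope as a covariate it was −0.31 (p = 0.00123, n = 48 mice). It was −0.61 in the B6 mice alone (p = 0.0118, n = 16) and −0.24 in the APOE-TR mice alone (p = 0.0189, n = 32), and neither value was called. The fits of each sex gave −0.51 for females (p = 0.002, n = 24) and −0.23 for males (p = 0.0406, n = 24). Adjusted p ran from 0.142 to 0.941 over the alternatives other than leaving 1 mouse out. Library quality still separated the APOE3 female groups without the 3 libraries. The controls left had mitochondrial shares of 12.5% and 13.7%, with 29.8 and 32.5 CPM of Rap1a. The nPM mice left had shares of 7.67% to 10.3%, with 20.53 to 26.9 CPM of Rap1a. No fit had the mitochondrial share as a covariate, and its part in the Rap1a difference was not tested.

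Rap1b, the sister of Rap1a, had a log2 difference of −0.18 over all mice (standard error 0.083, p = 0.0349, n = 48), which was not called. Its levels in B6 females were 45.2, 52.8, 57.2 and 62.2 CPM in controls and 39.3, 40.3, 42.3 and 45.7 CPM after nPM, so the groups overlapped by a single mouse. In APOE3 females they were 43.1, 54.9, 80.8 and 89.7 CPM in controls and 34.2, 35.6, 48.2 and 55.8 CPM after nPM, with the highest controls again mice 61 and F6. In males the differences were 0.12 (B6), −0.05 (APOE3) and −0.14 (APOE4), with adjusted p of at least 0.956. The Rap2 pair, whose targets include the kinase TNIK, showed smaller differences. Rap2a kept between 94.1 and 119 CPM in all 32 APOE-TR mice, and the 3 libraries that stood apart, at 100.4, 104 and 113 CPM, lay inside the range of the others. Its log2 difference over all mice was 0.06 (standard error 0.084, p = 0.446, n = 48). Rap2b had −0.10 (standard error 0.052, p = 0.0487, n = 48), which was not called. Its means were 64.0 ± 8.12 CPM in controls and 55.4 ± 5.18 CPM after nPM in APOE3 females, and 43.8 ± 5.08 and 36.4 ± 7.54 CPM in B6 males, with overlapping mice in both.

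The exchange factors did not share a direction. Rapgef4 (Epac2) is opened by cyclic AMP and is the most abundant of the set per kilobase. In B6 females the controls had 269, 350.5, 385 and 424 CPM of Rapgef4 and the nPM mice 145, 197, 209.8 and 277 CPM. The log2 difference was −0.76 (standard error 0.195, adjusted p = 0.384 from limma), and it was called at the threshold of 0.005. The highest exposed mouse lay just above the lowest control, and this was the only gene of the 9 called in B6 females, where 1.18% of all genes tested were called. At an unadjusted p under 0.05 there were 3 of 9 genes, against 10.4% of all genes. The summed neuron markers of these mice were 5989 to 6464 CPM in controls and 4163 to 6306 CPM after nPM, lowest in nPM mouse 52, which also had the lowest Rapgef4. Summed astrocyte markers were 3349 to 3744 CPM in controls and 2684 to 3226 CPM after nPM, without overlap, and the part of either cell type in the difference was not tested. The Rapgef4 call was lost in 4 of the 8 fits that left 1 mouse out (without control 42, control 43, nPM mouse 52 or nPM mouse 53, log2 differences of −0.66, −0.71, −0.61 and −0.73), without the filter on low values (−0.70) and with the spread shared over the 4 B6 groups (−0.78), and adjusted p ran from 0.179 to 0.748 over all these alternatives. In APOE3 females Rapgef4 was 536 ± 120 CPM in controls and 354 ± 82.7 CPM after nPM (log2 difference −0.53, adjusted p = 0.23), and without the 3 libraries, with 2 controls and 3 nPM mice left, the difference was −0.48 and called (adjusted p = 0.0834), in a fit that called 5.22% of all genes. Library quality still separated these groups, with a mitochondrial share of 12.5% and 13.7% in the controls and 7.67% to 10.3% in the nPM mice, and its part was not tested. Adjusted p ran from 0.00515 to 0.475 over all alternatives there. Over all mice it was −0.21 (p = 0.0509, n = 48), not called.

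Rapgef1, which adaptor proteins of the Crk family bring to the membrane, had a log2 difference of 0.22 over all mice (standard error 0.10, p = 0.0312, n = 48), not called. Most of its spread lay in APOE3 females, with 25.0, 35.5, 76.9 and 79.4 CPM in controls and 69.1, 83.5, 89.5 and 93.1 CPM after nPM. The 2 lowest controls are mice 61 and F6, and the log2 difference was 0.84 with all 8 mice and 0.19 without the 3 libraries. In B6 males the means were 23.9 ± 6.13 CPM in controls and 35.0 ± 7.49 CPM after nPM (log2 difference 0.54, adjusted p = 0.998), and the lowest of them, control 0 at 14.8 CPM, had the lowest length slope of the B6 libraries (−0.22). Rapgef2, an exchange factor of neurons and neuroendocrine cells, had 41.3, 43.6, 66.9 and 66.9 CPM in APOE3 control females and 66.9, 72.9, 81.5 and 86.6 CPM after nPM. The 3 values that round to 66.9 stand at the boundary of the groups, and the log2 difference was 0.58 (adjusted p = 0.23), and 0.27 without the 3 libraries. In B6 females the differences were −0.07 for Rapgef1 and −0.10 for Rapgef2, and neither gene was called in any of the 6 groups.

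Of the GAPs, Rap1gap had 17.9, 18.9, 22.3 and 36.4 CPM in B6 control females and 32.3, 34.1, 34.7 and 51.1 CPM after nPM. Control 43 was the mouse that overlapped the exposed ones. The log2 difference of 0.74 (standard error 0.242, adjusted p = 0.388) was not called, and without control 43 it was 0.96 and called (adjusted p = 0.377, range 0.274 to 0.703 over all alternatives). It was called as well without the filter on low values (0.80) and with a shared spread (0.72), the settings under which Rapgef4 was not. In APOE3 females Rap1gap was 75.8 ± 31.9 CPM in controls and 102 ± 20.8 CPM after nPM, and in B6 males 90.3 ± 14.0 and 73.8 ± 13.5 CPM. Sipa1l1 (SPAR), a postsynaptic GAP that acts on actin in spines, had the widest range of the 9 in APOE3 females as a ratio of highest to lowest. The controls there had 47.1, 96.7, 257 and 279.7 CPM and the nPM mice 179, 288, 306 and 320.2 CPM. The lowest mouse of each group was a library that stood apart, and the log2 difference of 1.05 (standard error 0.567, adjusted p = 0.25) became 0.20 without the 3 libraries.

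Across the 6 fits of 8 mice, Rapgef4 in B6 females was thus the only call. In APOE3 females 0 of 9 genes were called (0.672% of all genes) and 3 had an unadjusted p under 0.05 in limma (21% of all genes). In B6 males 0 of 9 were called (0.241% of all genes) and 0 had p under 0.05 (4.4%). In APOE3 males 0 of 9 were called (0.154%) and 0 had p under 0.05 (2.25%). In APOE4 females 0 of 9 were called (0.26%) and 0 had p under 0.05 (5.61%). In APOE4 males 0 of 9 were called (0.178%) and 1 had p under 0.05 (4.18%), Rap1gap with 0.22. The voom fits also called 0 of 9 in these 5 groups, as did edgeR on recovered reads in the 4 APOE-TR groups. When the spread was shared over the 8 APOE-TR groups, 6 of the 9 genes were called in APOE3 females, and 31.4% of all genes tested were called with them. In APOE4 males the summed markers of striatal neurons were 353 to 987 CPM in controls and 460 to 1269 CPM after nPM, with overlap. Rap1gap was highest in the nPM male with the highest sum, but not in the control male with the highest sum. The part of striatal tissue in the Rap1gap values was not tested.

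**Figure D2:**
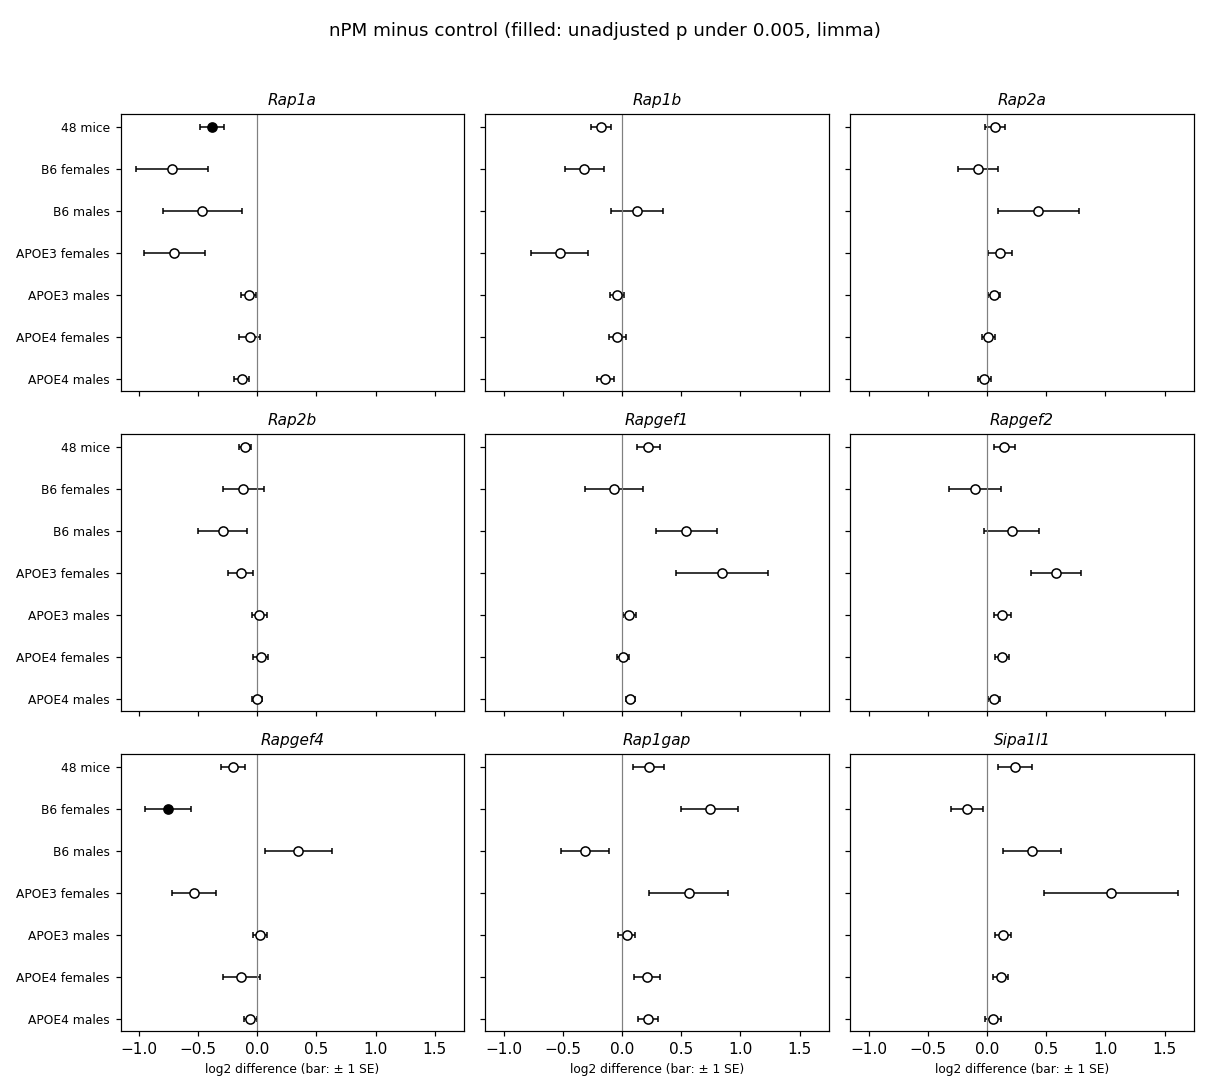
Log2 difference of nPM minus control (horizontal axis, bars ± 1 standard error) for each of the 9 genes, in the fit of 48 mice and in the 6 fits of 8 mice. Filled points have an unadjusted p under 0.005 in limma, which are Rap1a over 48 mice (−0.38) and Rapgef4 in B6 females (−0.76).

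Among APOE3 control females the levels moved with the mitochondrial share of the library. From the 13.7% of control 63 to the 21.8% of control 61, Rap1a went from 32.5 to 67.8 CPM and Rapgef4 from 476 to 679 CPM, while Rapgef1 went from 79.4 to 25.0 CPM and Sipa1l1 from 279.7 to 47.1 CPM. Rap2a went from 114 to 100.4 CPM, inside the range of the other mice. Other cell types moved with these libraries too, since summed oligodendrocyte markers were 4880 to 7101 CPM in APOE3 control females, highest in control 61, and 3741 to 5103 CPM in their nPM group. Summed microglial markers were 327 to 459 CPM in these controls and 239 to 325 CPM in the nPM mice, without overlap. Summed neuron markers were 7055 and 6136 CPM in controls 61 and F6, against 5030 and 5405 CPM in controls 52 and 63. Summed markers of oligodendrocyte precursors went the other way, at 120 and 161 CPM against 234 and 236 CPM. The part of library quality and of cell types in the nPM differences of APOE3 females was not tested beyond the fits without the 3 libraries. The length slope was a covariate only in the fits of all mice and of differences between responses, not in the fit of APOE3 females. The mitochondrial share was 7.03% to 8.32% in every APOE-TR male, and B6 libraries have no value for it here, although their length slopes ran from −0.22 to 0.08.

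**Figure D3:**
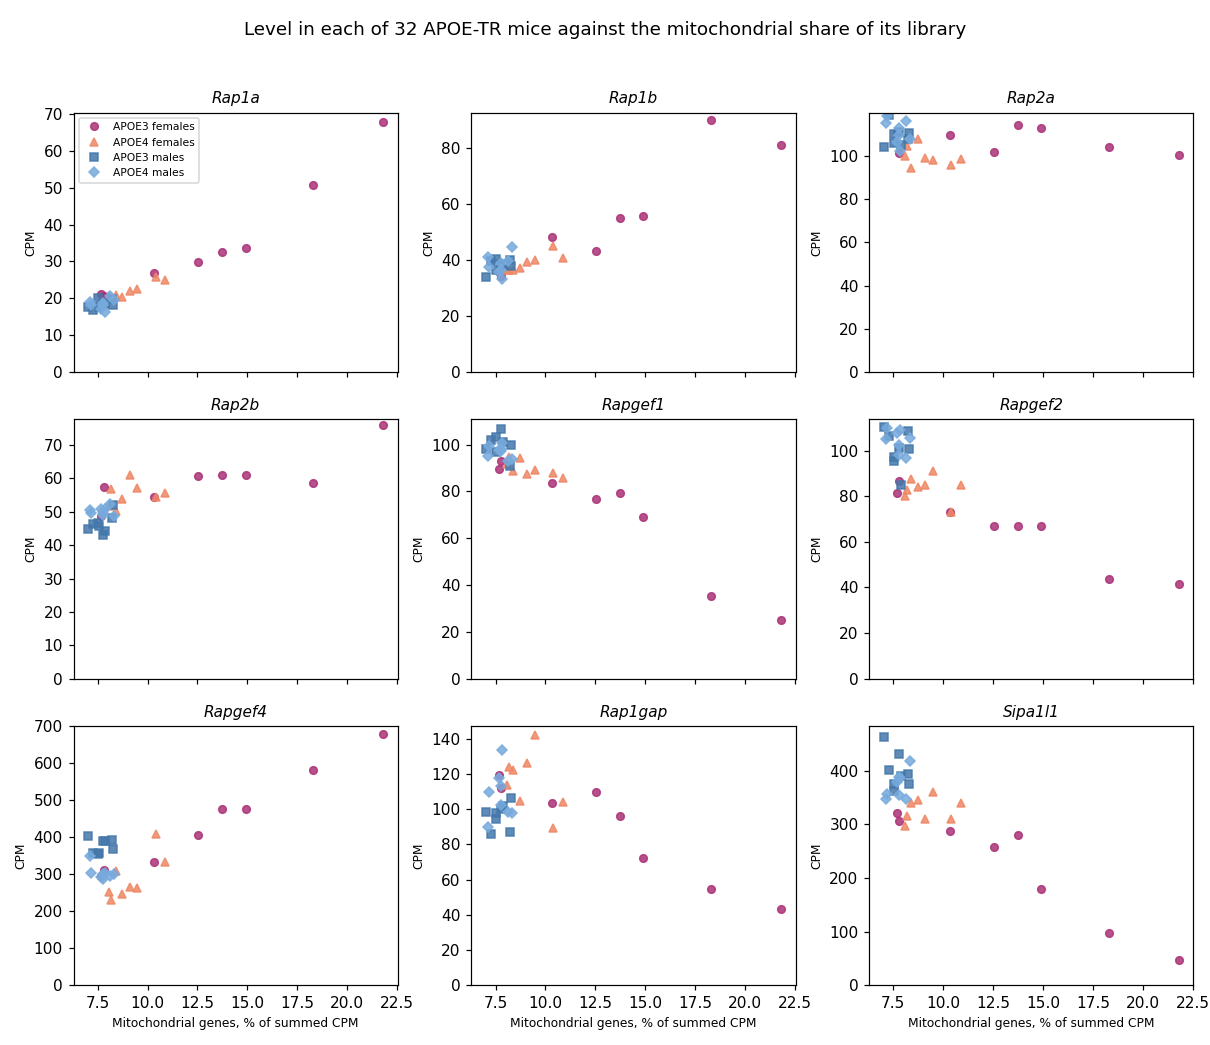
Level of each gene in CPM (vertical axis, from 0) against the share of summed CPM held by mitochondrial genes (horizontal axis, percent) in the 32 APOE-TR mice. Points are mice, marked by allele and sex. Rap1a, Rap1b and Rapgef4 were highest and Rapgef1, Rapgef2, Rap1gap and Sipa1l1 lowest in the APOE3 females at the right, up to 21.8%.

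To ask whether the nPM response differed between the sexes, the difference of responses, averaged over genotypes, was tested in a fit with 1 mean for each of the 12 groups. Of the 9 genes, 2 were called, against 1.98% of the 11068 genes, and 3 had p under 0.05, against 13.7%. Rapgef4 responded lower in females than in males by −0.60 on the log2 scale (standard error 0.167, p = 0.000843, adjusted p = 0.212, n = 48 mice). Its responses were −0.76, −0.53 and −0.14 in B6, APOE3 and APOE4 females and 0.35, 0.03 and −0.06 in the males. The call held in all 48 fits that left 1 mouse out and in the 7 other alternatives, where the difference lay between −0.62 and −0.56 and adjusted p between 0.163 and 0.365. Rap1gap responded higher in females by 0.50 (standard error 0.167, p = 0.00438, adjusted p = 0.244, n = 48 mice). Its responses were 0.74, 0.56 and 0.21 in females and −0.31, 0.04 and 0.22 in males. That call was lost in 30 of the 48 fits that left 1 mouse out, and the value was 0.38 without the 3 libraries (p = 0.00958, n = 45 mice) and 0.37 with the length slope (p = 0.0185, n = 48 mice). In B6 mice summed neuron markers went from 5989–6464 CPM in control females to 4163–6306 CPM after nPM and from 2185–4627 CPM in control males to 3676–4697 CPM after nPM. Summed astrocyte markers went from 3349–3744 to 2684–3226 CPM in B6 females, without overlap, and from 1601–2770 to 1844–3342 CPM in B6 males, with overlap. The length slope was 0.008 to 0.078 in B6 females and −0.22 to 0.07 in B6 males, lowest in control male 0. The part of these signs in the sex differences was not tested beyond the fit with the length slope.

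In the females alone, 3 of the 9 genes were called for nPM, against 3.45% of all genes. In the males alone 0 were called, in a fit that called 0.058% of all genes, so the counts of the sexes cannot be set against each other. The genes called in females were Rap1a (−0.51), Rapgef4 (−0.49, p = 0.000542, n = 24 mice) and Rap1gap (0.49, p = 0.00296, n = 24 mice). For Rap1a the test of the difference between the sexes gave −0.29 (standard error 0.182, p = 0.117, n = 48 mice), which was not called.

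The comparison of APOE4 with APOE3 asked whether the level of these genes differed between the alleles, and a gene was called at 5% FDR. APOE3 and APOE4 mice are separate lines, so the allele cannot be told apart from other differences between the lines. An allele difference here is a difference between these lines. In males Rapgef4 was the gene with the largest allele difference of the 9, lower in APOE4. The APOE3 males had 356, 358, 391 and 392 CPM in controls and 356, 368, 391 and 404 CPM after nPM. The APOE4 males had 296, 301, 302 and 348 CPM in controls and 288, 293, 303 and 304 CPM after nPM. All 8 APOE4 males lay below all 8 APOE3 males. The share of all genes that separated these males in the same way was not counted. In nPM males the log2 difference was −0.35 (standard error 0.048, adjusted p = 0.00736 from limma), the only call among the 9 genes, where 0.499% of all genes passed. At an unadjusted p under 0.05 there were 2 of 9 genes in nPM males, against 9.9% of all genes. Adjusted p was 0.00986 to 0.0375 over the 8 fits that left 1 mouse out, but with the spread shared over the 8 APOE-TR groups the call was lost (−0.35, adjusted p = 1.00), and the other 6 alternatives kept it. In control males the difference was −0.26 (standard error 0.064, adjusted p = 0.208), and 0 of 9 genes passed 5% FDR (0.439% of all genes), with 2 at p under 0.05 (5.81%). Markers of other cells moved with the allele in males. The sum of 7 astrocyte markers was 3853 to 4132 CPM in the 8 APOE3 males and 3461 to 3820 CPM in the 8 APOE4 males, which, as for Rapgef4, did not overlap. Summed endothelial markers were 134 to 146 CPM in APOE3 and 99.1 to 116 CPM in APOE4 nPM males, also without overlap, whereas they overlapped in control males, and summed neuron markers overlapped in both airs (4938 to 5942 CPM over the 16 males). The part of these cell types in the Rapgef4 difference was not tested.

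In females Rapgef4 had values below 0 as well, with more spread. Controls had 407, 476, 582 and 679 CPM in APOE3 and 230.0, 253, 335 and 409 CPM in APOE4. After nPM the levels were 295, 311, 335 and 475 CPM in APOE3 and 247, 263, 267 and 309 CPM in APOE4. The groups overlapped in both airs. The log2 differences were −0.74 in control females (standard error 0.205, adjusted p = 0.0764) and −0.34 in nPM females (standard error 0.143, adjusted p = 0.531), and without the 3 libraries −0.53 (adjusted p = 0.157) and −0.20 (adjusted p = 0.619). Adjusted p ran from 0.000311 to 0.194 over all alternatives in control females and from 0.33 to 0.747 in nPM females. The mitochondrial share did not overlap between the alleles in control females either, at 12.5% to 21.8% in APOE3 and 8.07% to 10.9% in APOE4. Within the APOE4 controls, the mice with shares of 10.9% and 10.4% had 335 and 409 CPM of Rapgef4, and those with 8.18% and 8.07% had 230.0 and 253 CPM. The part of library quality in the allele difference of females was not tested beyond leaving out libraries. Over all mice the fit gave −0.45 (standard error 0.126, p = 0.000801, adjusted p = 0.133, n = 48 mice), which missed 5% FDR. It passed in the APOE-TR mice alone (−0.43, adjusted p = 0.00112) and with voom, ComBat and an unweighted fit (−0.57, adjusted p = 0.00322), and adjusted p ran from 0.00112 to 1.00 over the 11 alternatives other than leaving 1 mouse out. Without the 3 libraries it was −0.35 (p = 0.00867, adjusted p = 1.00, n = 45 mice).

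The other 8 genes did not pass 5% FDR for the allele in the fit of all mice or in the 4 fits of 8 mice. In the fit of all mice 0 of 9 passed (0.37% of all genes), with 4 at p under 0.05 in limma (14.5% of all genes), and voom also gave 0. In control females 0 of 9 passed (0.232%), with 6 at p under 0.05 (41.1%), and in nPM females 0 of 9 (0.145%), with 1 at p under 0.05 (9.12%). Voom and edgeR on recovered reads gave 0 of 9 in control females, nPM females and control males. In control females the largest differences were 1.29 for Sipa1l1, 0.96 for Rapgef1 and −0.84 for Rap1a, and without controls 61 and F6 these became 0.25, 0.22 and −0.43. Leaving out APOE3 control 52 instead, 7 of the 9 genes passed 5% FDR, as did 38.9% of all genes, and with a shared spread 7 passed, as did 55.3% of all genes. In control males Sipa1l1, Rapgef1 and Rap1a had allele differences of −0.05, −0.04 and 0.03, and in nPM males −0.14, −0.03 and −0.02. The 4 APOE3 control females serve both this comparison and that of nPM in APOE3 females, so the values of the pair are not independent.

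In nPM males Rap1gap was 102, 109.6, 118 and 134 CPM in APOE4 and 85.7, 98.1, 100.1 and 106 CPM in APOE3, with overlapping groups (log2 difference 0.25, adjusted p = 0.367), and it was not called. Rap2b was 48.7 to 52.4 CPM in APOE4 control males and 44.3 to 48.01 CPM in APOE3 control males, with no overlap (0.13, adjusted p = 0.723), and was not called either. The share of all genes without overlap between these control males was not counted.

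**Figure D4:**
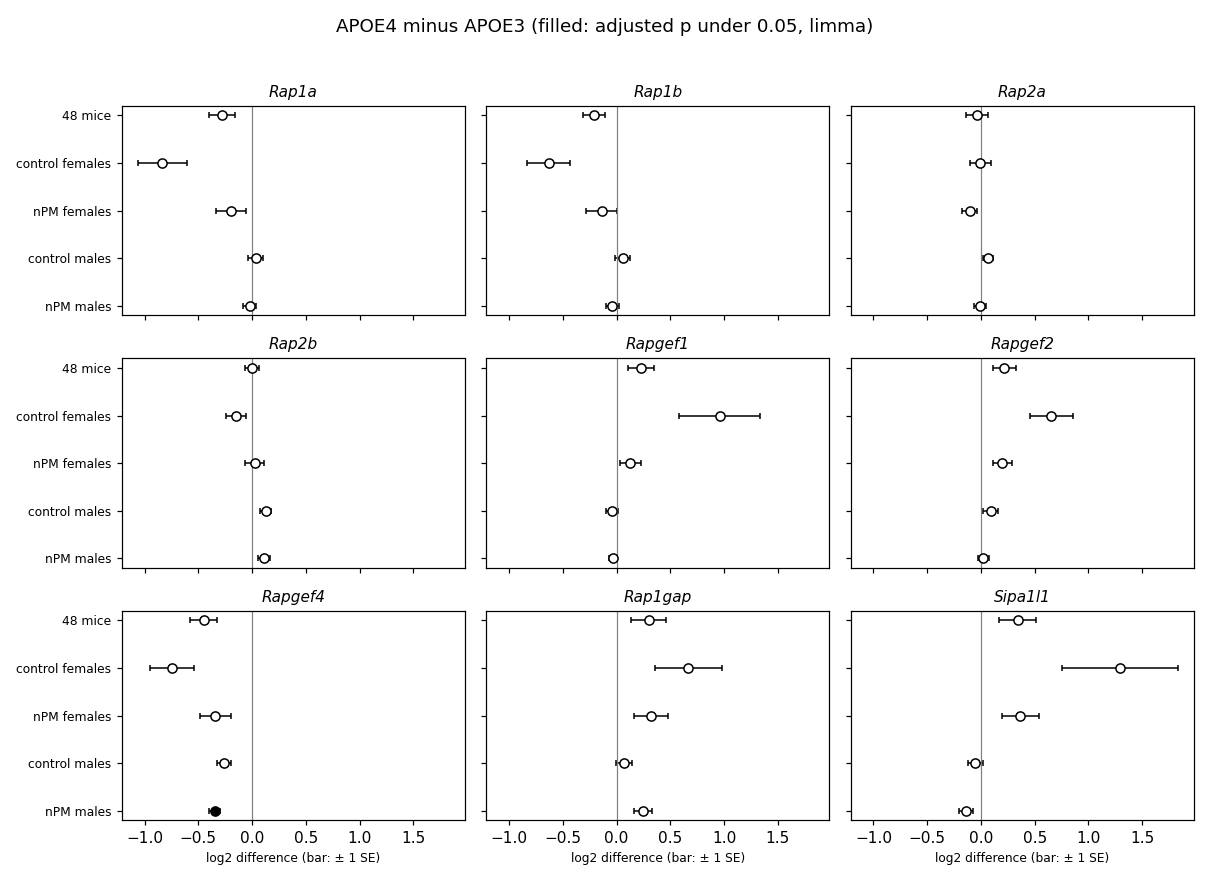
Log2 difference of APOE4 minus APOE3 (horizontal axis, bars ± 1 standard error) for each of the 9 genes, in the fit of 48 mice and in the 4 fits of 8 mice. The filled point has an adjusted p under 0.05 in limma, which is Rapgef4 in nPM males (−0.35).

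A difference of the nPM response between the alleles was called for 0 of the 9 genes. Over both sexes 0.727% of all genes were called, in females 3.77% and in males 0.0313%. In limma the 9 genes had 1, 5 and 0 with p under 0.05, against 10.6%, 29.4% and 0.877% of all genes, and the voom fits also called 0 of 9. In females the differences of APOE4 minus APOE3 were 0.64 for Rap1a (standard error 0.218, adjusted p = 0.126), −0.83 for Rapgef1 and −0.45 for Rapgef2, and without the 3 libraries 0.36, −0.19 and −0.16. Leaving out 1 mouse gave 0 to 4 calls here. Without APOE3 control 52 there were 4 (3271 of 15970 genes called in all), without APOE3 control 63 there were 4 (14.2% of all genes), without APOE3 nPM mouse 55 there were 2 (15.1%), and without APOE4 control 21 there was 1 (3.34%). Rap1a was called in all 4 of these fits. In males the 9 differences ran from −0.10 to 0.18.

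Of 31 other genes of the Rap pathway, 29 could be tested in the fit of all mice. For nPM 2 were called, both higher, against 1.49% of all genes. They are Mink1, a kinase that binds Rap2 (log2 difference 0.42, standard error 0.129, adjusted p = 0.301), and Rapgefl1, related to the exchange factors (0.41, standard error 0.136, adjusted p = 0.301). The differences were above 0 in 25 of the 29, with a median of 0.14, against a median of −0.01 for all genes tested. The share of all genes above 0 was not counted. The alternative fits were read for the 9 genes and not for these. In the fits of 8 mice the median of the pathway genes was highest in APOE3 females (0.41), which include the 3 libraries that stood apart. In B6 females 2 were called, against 1.18% of all genes, Mink1 (1.24) and Rapgef3 (1.40), the cyclic AMP sensor Epac1 that is a relative of Rapgef4. Rapgef3 was also called for the sex difference of the nPM response (0.85, standard error 0.258, adjusted p = 0.217), opposite in sign to Rapgef4. For the allele 0 of the 29 passed 5% FDR in the fit of all mice, with 8 at p under 0.05 in limma (14.5% of all genes). Of the 31, 0 passed in each fit of 8 mice, with 18 at p under 0.05 in control females (41.1% of all genes), 1 in control males (5.81%), 5 in nPM females (9.12%) and 1 in nPM males (9.9%).

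The gene whose log2 level followed each of the 9 most closely over the 32 APOE-TR mice was taken from 15958 genes. For Rap1a it was Tmed2 (Pearson r = 0.99), for Rap1b Psma1 (0.97), for Rap2a Matn2 (0.77) and for Rap2b Ccdc106 (0.93). For the exchange factors it was Pitpnm3 (Rapgef1, 0.99), Bptf (Rapgef2, 0.98) and Cd63 (Rapgef4, 0.91), and for the GAPs C2cd2l (Rap1gap, 0.96) and Epb41l1 (Sipa1l1, 0.99). These values share libraries and their quality. Between Rap1a and Rap1gap r was −0.75 over 32 mice and −0.04 over the 29 mice without the 3 libraries, and between Rap1a and Rapgef1 it was −0.95 and −0.92.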

How the data were processed

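Cortex RNA of 48 mice was analysed from 2 tables. The authors mapped single-end reads of a stranded mRNA kit uniquely to mm10 (TopHat2 2.0.8b and Partek, per the submitters' processing notes) and deposited CPM per gene, on a scale that is not stated. In APOE-TR mice the deposited CPM steps gave back whole reads for 96.1% to 97.1% of low values, within 0.1 of a step, and in B6 mice for 87.7% to 98.4%. One APOE3 female control column (F6) names no listed animal and was used by its group label, and duplicated symbols were left out.

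After TMM scaling (edgeR 4.0.16), 0.5 CPM was added before the log2, which understates differences of low genes. Genes above 1.5 times the lowest value in every mouse were tested in limma 3.58.1 (R 4.3.3, trended eBayes, two-sided, Benjamini-Hochberg over all genes tested). As in the study, nPM calls had an unadjusted p under 0.005 and allele calls passed 5% FDR. SDs are between mice. Alternatives were other pseudocounts (0.1 and 2), no TMM, no filter, voom, voom with ComBat (sva 3.50.0), edgeR on recovered reads, a shared spread, subsets of mice, a length slope and each mouse left out. The fits without 3 libraries were added after the data were seen. Nothing says which mice shared a cage or batch. Exon lengths and positions are from GENCODE (mm10). Lengths are the union of a gene's exons. Named genes are the 9, their pathway list by counts with those past the call rule in the fits of all mice, the closest gene by correlation, and Xist, Ddx3y and Apoe. Rapgef3 was named after its values were seen. The 9 genes and the lists were chosen with earlier results of these data known. The procedure was run on simulated data with a log2 difference of 1.5, larger than most differences here, and with independent noise. That run does not show how the procedure handles smaller differences or quality shared within a library.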

Additional observations from a re-analysis of the deposited data

Results flagged for a closer look

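Rapgef4 had a nPM response that differed between the sexes by −0.60 (log2, females minus males) and Rap1gap by 0.50, each past an unadjusted p of 0.005 in the test of the difference itself, and neither past 5% FDR.

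Each of the 9 genes was looked at in each of the 12 groups, which gave 108 sets of 4 values. In 9 sets a mouse lay far from the other 3 of its group, where chance alone flags about 5.4. The sets share mice and libraries, so 9 against 5.4 is not a test. In B6 nPM males, mouse 11 stood high for Rap1a, at 9.65 CPM against a next value of 5.07 CPM, and for Rap2b, at 47.7 CPM against 34.1 CPM. In the same group mouse 16 was low for Rapgef2 at 24.9 CPM, and in B6 control males mouse 0 was low for Rapgef1 at 14.8 CPM. In B6 females, nPM mouse 53 was high for Rap1gap at 51.1 CPM and control 41 for Sipa1l1 at 336 CPM. In APOE-TR mice, APOE3 control female 61 was high for Rap2b at 76.1 CPM, and among APOE4 control males mouse 32 was high for Rapgef4 at 348 CPM and mouse 21 for Sipa1l1 at 418 CPM. Mouse 32 still lay below the lowest APOE3 male, which had 356 CPM. Control 61 is among the 3 libraries with a high mitochondrial share, and B6 control male 0 had the lowest summed neuron markers of all mice, 2185 CPM.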

How the results depend on the processing

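The count of the 9 genes called for nPM over all mice was 1. It was 0 in the APOE-TR mice alone, 0 in the B6 mice alone, 3 in females alone and 0 in males alone, fits with fewer mice. In APOE3 females the count of 0 became 6 with a shared spread and 1 without the 3 libraries. For the allele, the 0 over all mice became 1 with voom, ComBat and an unweighted fit and 1 in the APOE-TR mice alone, the 0 of control females became 7 with a shared spread, and the 1 of nPM males became 0 with it. For the sex difference the 2 became 1 without TMM, 1 with the length slope and 1 without the 3 libraries. The causes were not tested.

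Leaving out each mouse in turn gave 1 to 1 call for nPM over all mice, 0 to 1 in B6 females, 0 to 1 in APOE3 females, 0 to 7 for the allele in control females, 1 to 1 in nPM males, 1 to 3 for the sex difference and 0 to 4 for the allele difference of the response in females, and 0 in the other fits. For single genes, 3894 of 3978 alternative values stayed on their side of the threshold, 43 lost a call and 41 gained one. No called value changed sign, and 103 values that were never called did. No paired analysis was possible because no pair of compared groups shares more than 1 animal number, and shared numbers are different mice. Depth limits Rap1a in B6 mice, with as few as 23 estimated reads.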

Other observations

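In B6 mice Rap1gap differed in level by sex, a comparison that the study's fits take as a covariate and that was not tested here. The 8 B6 females had 17.9 to 51.1 CPM and the 8 B6 males 54.5 to 109 CPM, with no overlap. This was not particular to Rap1gap. Rap1b did not overlap either, in the other direction, with 39.3 to 62.2 CPM in B6 females and 22.1 to 31.2 CPM in B6 males. The share of all genes without overlap between the B6 sexes was not counted. In APOE-TR mice the Rap1gap ranges of the sexes overlapped, with group means of 75.8 to 124 CPM in females and 95.2 to 116 CPM in males. Summed neuron markers of the B6 mice were 4163 to 6464 CPM in females and 2185 to 4697 CPM in males, their length slopes were 0.008 to 0.078 in females and −0.22 to 0.07 in males, and the part of either in the Rap1gap values was not tested.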
